A study of Mus musculus with 12 samples.

Results

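The mouse genes named Zfp400 to Zfp999 that have a row in the gene table are 206 of its 26061 rows. They were chosen by a rule on names that used no measured value, though earlier results of these data were known. Their levels were measured by sequencing of RNA depleted of ribosomal RNA in E14 cells, a 129/Ola line of mouse embryonic stem cells kept on gelatin without feeder cells. The shSetdb1 cells carried a lentiviral pLKO.1 shRNA against Setdb1 and grew either in 2i, a medium of N2, B27 and LIF to which PD0325901, which blocks MEK, and CHIR99021, which blocks GSK3, are added, or in serum with LIF. The shScr cells carried a non-targeting shRNA and grew in the same 2i or serum media. The submitters call cells in 2i naive and cells in serum primed. All cells were put under puromycin at 48 hours after infection and collected after 3 days of it, and each of the 4 groups held 3 libraries. No group carried another shRNA against Setdb1 or a rescue, so loss of Setdb1 and any off-target action of this shRNA cannot be told apart. In RNA from whole cultures, fewer expressing cells and less RNA per cell cannot be told apart.

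Many of these genes encode proteins with a KRAB domain followed by an array of C2H2 zinc fingers. The fingers bind DNA, often within transposable elements, and the KRAB domain recruits KAP1 (Trim28), which brings in SETDB1 to methylate histone H3 on lysine 9. Clusters of KRAB zinc finger genes are themselves known to carry that mark in mouse embryonic stem cells, so the family is both a user of the pathway and one of its genomic sites. A coding sequence could be read for 203 members in the GRCm38 annotation, and a KRAB box was found in 115 of them and not in the other 88. The call rested on at least 18 of 39 matching residues in an ungapped comparison with a KRAB A box consensus, and 5 members lay within 14 to 20 matches, near that limit. Members had 0 to 33 fingers by pattern, with a median of 12 in those with a KRAB box and 7 in those without. Zfp462 and Zfp619 had 33, and 7 members, among them Zfp703 and Zfp503, had 0 fingers of the pattern searched. Chromosome 7 held 55 members, chromosome 17 held 24, chromosome 13 held 19 and chromosome 8 held 18. In 25 runs of adjacent members there were 77 genes, and the longest run, from Zfp455 to Zfp459 on chromosome 13, held 8.

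The promoters of 4 KRAB members, Zfp869, Zfp958, Zfp951 and Zfp677, are shown because these genes had the largest differences between shSetdb1 and shScr libraries in 2i. Each window runs from 250 bases before to 50 bases after the start that RefSeq gives on GRCm38.p6, and was read 5′ to 3′ on the strand of the gene. The windows are chr8:69716853-69717152 on the minus strand for Zfp869, chr8:4612920-4613219 on the plus strand for Zfp958, chr5:104859978-104860277 on the minus strand for Zfp951 and chr17:21383498-21383797 on the plus strand for Zfp677. Capitals mark the letters CCAATCA, which contain the CCAAT core bound by the NF-Y complex.
Zfp869: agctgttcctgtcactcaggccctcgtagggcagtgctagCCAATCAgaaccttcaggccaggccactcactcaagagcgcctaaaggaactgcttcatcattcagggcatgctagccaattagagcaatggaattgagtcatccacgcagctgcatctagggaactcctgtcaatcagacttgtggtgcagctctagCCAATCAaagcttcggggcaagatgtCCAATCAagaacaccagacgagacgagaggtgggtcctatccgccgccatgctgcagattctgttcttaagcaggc
Zfp958: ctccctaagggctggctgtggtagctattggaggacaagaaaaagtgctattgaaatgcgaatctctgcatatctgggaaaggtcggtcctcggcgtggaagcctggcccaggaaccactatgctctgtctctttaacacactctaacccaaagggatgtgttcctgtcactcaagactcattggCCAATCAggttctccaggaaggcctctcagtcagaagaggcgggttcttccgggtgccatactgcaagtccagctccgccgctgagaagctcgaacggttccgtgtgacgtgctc
Zfp951: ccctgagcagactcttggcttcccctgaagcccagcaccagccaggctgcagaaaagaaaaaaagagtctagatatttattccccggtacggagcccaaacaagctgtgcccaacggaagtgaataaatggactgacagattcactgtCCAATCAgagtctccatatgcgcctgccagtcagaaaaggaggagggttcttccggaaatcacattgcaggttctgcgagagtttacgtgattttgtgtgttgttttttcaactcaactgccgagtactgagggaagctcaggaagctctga
Zfp677: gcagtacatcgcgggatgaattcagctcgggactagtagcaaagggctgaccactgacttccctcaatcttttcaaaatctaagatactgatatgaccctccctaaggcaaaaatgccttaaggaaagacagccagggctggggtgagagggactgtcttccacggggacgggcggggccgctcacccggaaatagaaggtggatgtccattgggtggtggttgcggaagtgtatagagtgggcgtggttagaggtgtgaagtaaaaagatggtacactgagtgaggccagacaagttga

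The window of Zfp869 held CCAATCA 3 times, at 210, 52 and 26 bases before the start. Those of Zfp958 and Zfp951 held it once each, at 65 and 102 bases before the start, and that of Zfp677 did not hold these letters. Over both strands of the first window of each gene, CCAATCA was in 30.5% of 105 members with a KRAB box, in 8.2% of 61 members without one and in 8.2% of the windows of 27025 genes. The letters CCGGAA, a core of ETS factor sites, were in 36.2% of the windows of members with a KRAB box, 21.3% of those without and 15.2% of those of all genes. In the windows of 17492 protein-coding genes, CCAATCA was in 9.56% and CCGGAA in 19.1%. Windows were found for 169 members, both motifs were chosen after the sequences were read, and a match is a description of the letters only.

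Of the 206 members, 3 (Zfp648, Zfp735 and Zfp616) had 0 reads in all libraries, 171 had a read in every library and 151 had at least 10 in every library. A filter on low mean values kept 188 members for testing, 110 with a KRAB box, 75 without and 3 not classed. The 18 members not kept had at most 59 reads over the 12 libraries and included the developmental genes Zfp503 and Zfp703. Normalised reads below are whole reads, recovered from the deposited values, over each library's size factor. Per kilobase of exon, the highest member in serum shScr libraries was Zfp534, at 2788 ± 1325 normalised reads per kb, followed by Zfp600 at 1131 ± 546 and Zfp568 at 640 ± 252 (SD, n = 3 each). The ranges of mean ± SD of neighbours in this order overlapped, and the next one down, Zfp936, was at 531 ± 277. Zfp534 and Zfp600, KRAB genes of chromosome 4, share 68.4% and 81.2% of their 50-base words with other genes, so their reads may be split among copies. Zfp568, which represses a placental transcript of Igf2, shares 0.054% of its words. The median of kept members with a KRAB box was 51.2 normalised reads per kb in serum shScr libraries, against 31.2 for those without. Within the groups, the median SD of a kept member on the log2 scale was 0.43 in 2i shSetdb1, 0.27 in 2i shScr, 0.38 in serum shSetdb1 and 0.35 in serum shScr libraries.

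Libraries held 4821181 to 15509401 gene reads, the fewest in 2i shSetdb1 replicate 3. Setdb1 itself had 837, 610.2 and 340.1 normalised reads in 2i shSetdb1 libraries, against 3607, 2724 and 2253 in 2i shScr libraries, and 418.3, 379 and 409.4 in serum shSetdb1 libraries, against 2959, 2237 and 1587 in serum shScr libraries. Structural RNA families took 19.9, 55.6 and 69.5% of repeat reads in 2i shSetdb1 replicates 1 to 3 and 32.1, 38.9 and 64.6% in 2i shScr, and 16.1, 15.6 and 42.6% in serum shSetdb1 and 24.2, 29.9 and 48.3% in serum shScr, so libraries of a group differed in composition. The 8 pluripotency markers were all present and summed to 37850 to 80040 normalised reads a library. The 7 fibroblast markers summed to 123.9 to 767.8 in 2i shSetdb1 libraries against 5.777 to 31.72 in 2i shScr libraries, and to 44.64 to 66.15 in serum shSetdb1 libraries against 27.14 to 104.8 in serum shScr libraries. None of these 7 was at 0 in all libraries. The 3 mesoderm markers summed to 0 to 36.12 in 2i shSetdb1 libraries against 70.34 to 174.9 in 2i shScr libraries, and to 0.959 to 6.085 in serum shSetdb1 libraries against 0 to 19.54 in serum shScr libraries, with Mesp1 at 0 throughout. The 4 trophoblast markers summed to 0 to 72.08 in 2i shSetdb1, 45.5 to 93.1 in 2i shScr, 12.46 to 39.55 in serum shSetdb1 and 10.69 to 24.87 in serum shScr libraries, with Elf5 at 0 throughout. Between the media, the 4 endoderm markers summed to 3.448 to 9.39 in 2i shScr libraries against 42.64 to 70.57 in serum shScr libraries. Marker sums thus moved with both comparisons that use 2i shScr libraries, and their part in the results was not tested.

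The first comparison asked which members changed with the shRNA against Setdb1 in 2i. One gene, the KRAB member Zfp869, rose past the threshold of an adjusted p under 0.05, and no member fell. It was 1 of 188 members kept, where 1.21% of the 14487 genes tested rose and 0.0552% fell. Zfp869 had 390.4, 354.3 and 345.7 normalised reads in 2i shSetdb1 libraries, against 162.5, 86.2 and 9.39 in 2i shScr libraries. The shSetdb1 libraries lay close together and well above the shScr libraries, which differed widely among themselves. The means were 363.5 ± 23.8 in 2i shSetdb1 and 86.0 ± 76.6 in 2i shScr libraries (SD, n = 3 each), a 4.23-fold rise, or 1.99 on the log2 scale (SE 0.44, limma adjusted p = 0.034). Without 2i shScr replicate 1 the fold became 7.6, and without replicate 3 of that group the log2 change was 1.34 (limma adjusted p = 0.0883). The call held in 10 of 21 alternatives, with limma adjusted p values of 0.00456 to 0.242 and log2 changes of 1.34 to 2.53. Zfp869 shares 9.35% of its 50-base words with other genes, and Zfp868, a nearby gene of chromosome 8, is the top partner.

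In serum, Zfp869 had 375, 396.7 and 365.3 normalised reads in shSetdb1 libraries, against 156.3, 165.2 and 99.44 in shScr libraries. The groups did not overlap here either, and the shSetdb1 libraries of both media reached a like level. The log2 change in serum was 1.24, a 2.70-fold ratio of means (SE 0.44, limma adjusted p = 0.573), and did not pass. The difference of the changes, 2i minus serum, was 0.75 (SE 0.62, limma adjusted p = 1.00).

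The other 3 members with large differences in both media also have a KRAB box, and none of them passed in either medium. Zfp958 had 573.4, 1047 and 763.2 normalised reads in 2i shSetdb1 libraries, against 206.5, 257.9 and 366.2 in 2i shScr libraries. Its groups did not overlap, with a 2.87-fold ratio of means and a log2 difference of 1.38 (SE 0.33, limma adjusted p = 0.0523). In serum Zfp958 had 749.2, 772.3 and 1405 normalised reads in shSetdb1 libraries, against 407.1, 442.4 and 290.8 in shScr libraries, again without overlap, a log2 difference of 1.23 (SE 0.33, limma adjusted p = 0.168). Little of Zfp958 is shared with other genes, 0.648% of its 50-base words.

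Zfp677 had 257.5, 108.6 and 110.6 normalised reads in 2i shSetdb1 libraries, against 17.33, 43.45 and 30.52 in 2i shScr libraries. One shSetdb1 library, replicate 1, stood above the other two, and all 3 lay above the shScr libraries. The ratio of means was 5.22 and the log2 difference 1.53 (SE 0.38, limma adjusted p = 0.0675). In serum Zfp677 had 127.8, 203 and 160.1 normalised reads in shSetdb1 libraries, against 37.99, 100.4 and 34.22 in shScr libraries, a ratio of 2.84 and a log2 difference of 1.15 (SE 0.38, limma adjusted p = 0.422). The ratio in serum was 4.53 without serum shScr replicate 2, the library nearest to the shSetdb1 values.

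Zfp951 had 1236, 2034 and 1181 normalised reads in 2i shSetdb1 libraries, against 449.9, 542.7 and 597.4 in 2i shScr libraries, and 1103, 738.6 and 1648 in serum shSetdb1 libraries, against 523.2, 661 and 160.4 in serum shScr libraries. Neither pair of groups overlapped, although serum shSetdb1 replicate 2 lay close to serum shScr replicate 2. The log2 differences were 1.38 in 2i (SE 0.42, limma adjusted p = 0.214) and 1.41 in serum (SE 0.42, limma adjusted p = 0.295). Of the 188 kept members, these were the 4 with a log2 difference above 1 in both media.

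**Figure D1:**
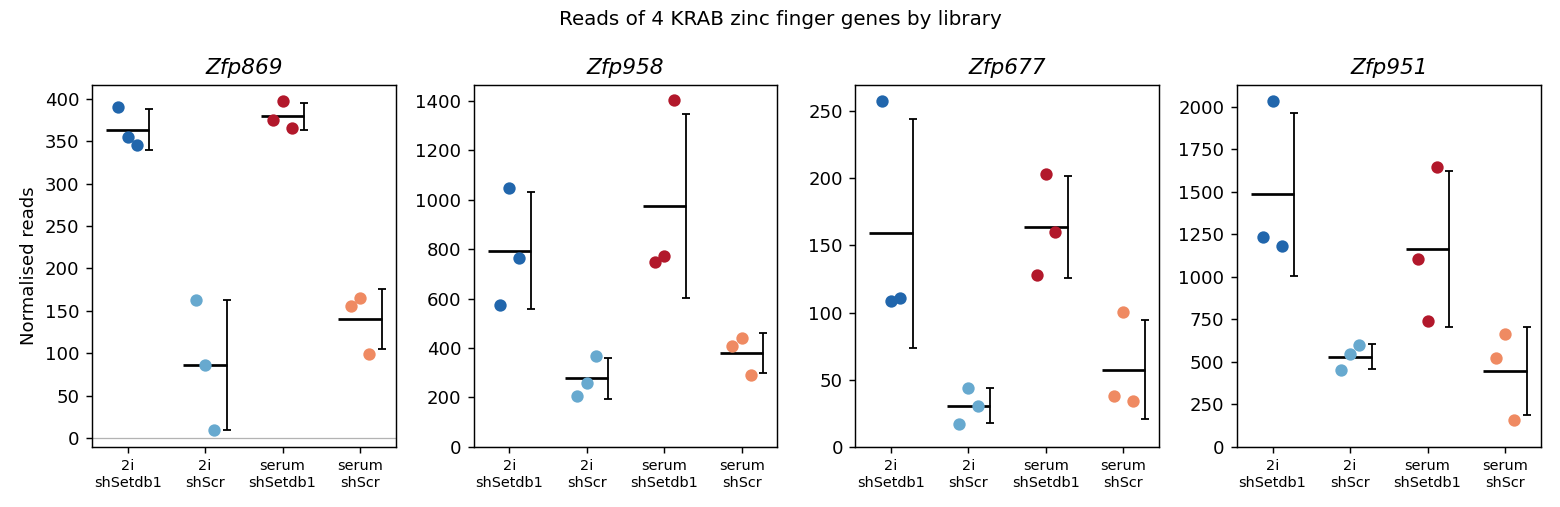
Normalised reads (vertical axes, linear) of Zfp869, Zfp958, Zfp677 and Zfp951 in each library, by medium and shRNA. Points are single libraries, lines are means and bars are SDs over 3 libraries, and in each medium the 3 shSetdb1 points of each gene lie above its 3 shScr points.

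Beyond these 4 genes, the KRAB members Zfp560, Zfp493, Zfp934 and Zfp790 had log2 differences above 1 in 2i, and none of them passed. Zfp560 had 149.1, 101.5 and 121.7 normalised reads in 2i shSetdb1 libraries, against 31.05, 52.41 and 28.17 in 2i shScr libraries, a log2 difference of 1.16 (SE 0.35, limma adjusted p = 0.207). Zfp934 had 245.2, 249.7 and 376.1 in 2i shSetdb1 libraries, against 142.3, 123.4 and 78.64 in 2i shScr libraries, a log2 difference of 1.10 (SE 0.30, limma adjusted p = 0.114). Zfp493 averaged 186.7 ± 60.9 normalised reads in 2i shSetdb1 libraries and 63.3 ± 6.28 in 2i shScr libraries (SD, n = 3 each), and Zfp790 averaged 332.2 ± 98.6 in 2i shSetdb1 libraries and 145.6 ± 58.0 in 2i shScr libraries. In all 4 genes the 2i groups did not overlap, and in serum their log2 differences were 0.36 to 0.63, with non-overlapping groups for Zfp934 alone. Zfp934 shares 29.5% of its words with other genes, with Zfp808 as the top partner, and its reads are uncertain for that reason.

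In serum, no member passed in either direction, where 0.601% of all genes tested rose and 0.0483% fell. At an unadjusted limma p under 0.05, 9 members were higher in serum shSetdb1 libraries and 0 were lower, against 3.68% and 1.42% of all genes tested. In 2i the same threshold held 14 members higher, 13 of them with a KRAB box, and 3 lower, against 5.41% and 1.95% of all genes tested. The lower ones were Zfp599, Zfp746 and Zfp764, with log2 differences of −0.77, −0.77 and −0.67 (limma adjusted p = 0.581, 0.581 and 0.638).

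Groups that did not overlap were counted as a second description. In 2i, all 3 shSetdb1 libraries lay above all 3 shScr libraries for 25 members (13.3% of those kept), against 6.33% of all genes tested, and below them for 8 members (4.26%), against 4.33%. In serum the counts were 13 members higher (6.91%), against 6.12% of all genes, and 3 lower (1.6%), against 3.59%. In both media, 9 members were higher without overlap (4.79%), against 2.01% of all genes, and 1 was lower (0.532%), against 0.435%. The 9 were Zfp869, Zfp958, Zfp677, Zfp951, Zfp934, Zfp558, Zfp708, Zfp771 and Zfp653, of which 7 have a KRAB box and Zfp771 and Zfp653 do not. The gene lower in both was Zfp623, at 162.9, 225.4 and 207.4 normalised reads in 2i shSetdb1 libraries, against 239.8, 262.8 and 352.1 in 2i shScr libraries, with a log2 difference of −0.44 (limma adjusted p = 0.83).

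Zfp771, whose protein has 8 fingers and no KRAB box, had 88.39, 93.4 and 96.79 normalised reads in 2i shSetdb1 libraries, against 57.77, 37.93 and 45.77 in 2i shScr libraries. In serum it had 42.59, 49.69 and 40.27 in shSetdb1 libraries, against 8.684, 30.21 and 21.38 in shScr libraries. The shSetdb1 libraries agreed closely within each medium, and the log2 differences were 0.65 in 2i and 0.61 in serum (limma adjusted p = 0.638 and 1.00). Zfp558, with a KRAB box, had a 2.09-fold ratio of means in both media (limma adjusted p = 0.79 in 2i and 0.849 in serum). Zfp618 and Zfp608, which have no KRAB box, had log2 differences of 1.21 each in serum. Zfp618 had 84.43, 133.1 and 22.05 normalised reads in serum shSetdb1 libraries, against 15.2, 31.98 and 2.138 in serum shScr libraries, and Zfp608 had 94.31, 170.1 and 11.51 in serum shSetdb1 libraries, against 22.8, 13.33 and 6.415 in serum shScr libraries. The groups overlapped, but in both genes each shSetdb1 library lay above the shScr library of the same number. This match by number rests on correlations of the serum libraries alone, which do not establish a pairing. Neither gene passed (limma adjusted p = 0.645 and 0.789), nor with the number as a block (limma adjusted p = 0.34 and 0.246) or with a block within each medium (0.127 and 0.2). In 2i Zfp618 had 8.455, 3.046 and 33.18 normalised reads in shSetdb1 libraries, against 1.444, 2.069 and 0 in shScr libraries, without overlap. The 12.7-fold ratio of these means was the largest of any kept member in 2i, but rests on 26 reads in shSetdb1 and 5 in shScr libraries, and did not pass (log2 difference 0.76, limma adjusted p = 0.8). It was 4.91 without 2i shSetdb1 replicate 3 and 20.6 without 2i shScr replicate 2.

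**Figure D2:**
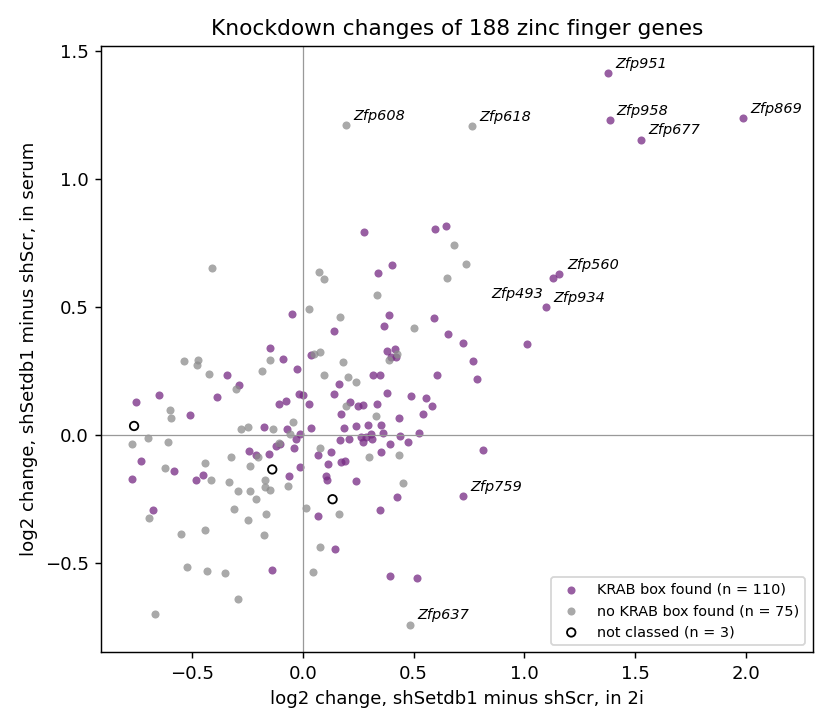
Log2 change of each of 188 kept members, shSetdb1 minus shScr, in 2i (horizontal axis) and in serum (vertical axis), one point a gene, with KRAB class by colour. Zfp869, Zfp958, Zfp677 and Zfp951 stand apart at the upper right, above 1 on both axes.

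Members with and without a KRAB box were set side by side. In 2i the 110 with a KRAB box had a median log2 difference of 0.25 between shSetdb1 and shScr libraries, with 78 of them (70.9%) above 0, and the 75 without had a median of −0.17, with 30 of them (40%) above 0. The median over all 14487 genes tested was 0.01, with 51.2% above 0. Of the members with a KRAB box, 20 were higher without overlap (18.2%) and 3 lower (2.73%), and of those without, 5 were higher (6.67%) and 4 lower (5.33%), against 6.33% and 4.33% of all genes tested. The non-overlap shares of members without a KRAB box were thus near those of all genes. Their median and their share above 0 were lower than those of all genes. In serum the medians were 0.08 with a KRAB box and −0.03 without, against −0.00 over all genes. Over all 188 kept members the median was 0.10 in 2i and 0.03 in serum.

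By library, the median difference of the KRAB members from the 2i shScr mean was 0.19, 0.36 and 0.18 in 2i shSetdb1 replicates 1 to 3, against 0.03, −0.03 and −0.04 in 2i shScr replicates 1 to 3. All 3 shSetdb1 libraries lay above all 3 shScr libraries. The same 2i shScr libraries were lower than serum shScr libraries in KRAB members, with a median log2 difference of −0.16, against −0.05 over all genes tested. Both comparisons share those libraries and are not independent. For members without a KRAB box the values were 0.10, −0.21 and −0.30 in 2i shSetdb1 libraries, against 0.01, 0.11 and −0.11 in 2i shScr libraries, and the groups overlapped. The shSetdb1 libraries with the low values, replicates 2 and 3, were also those with 55.6% and 69.5% structural RNA among repeat reads, and its part in the result was not tested. In serum both classes overlapped between the groups, with KRAB medians of 0.23, 0.05 and 0.11 in shSetdb1 libraries, against 0.13, 0.07 and −0.21 in shScr libraries. Over 21 alternatives the 2i median ran from 0.15 to 0.33 with a KRAB box and from −0.22 to −0.06 without. Many of the 21 could not move a median in either medium, such as the blocks and leaving out libraries of the other medium. The serum median ran from 0.01 to 0.18 with a KRAB box and from −0.08 to 0.15 without, the second turning positive without serum shScr replicate 1 or serum shSetdb1 replicate 3. Without serum shSetdb1 replicate 3 the order of the classes in serum turned too, with medians of 0.09 with a KRAB box and 0.15 without. Members are not replicates, and no test was made of the gap between the classes.

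**Figure D3:**
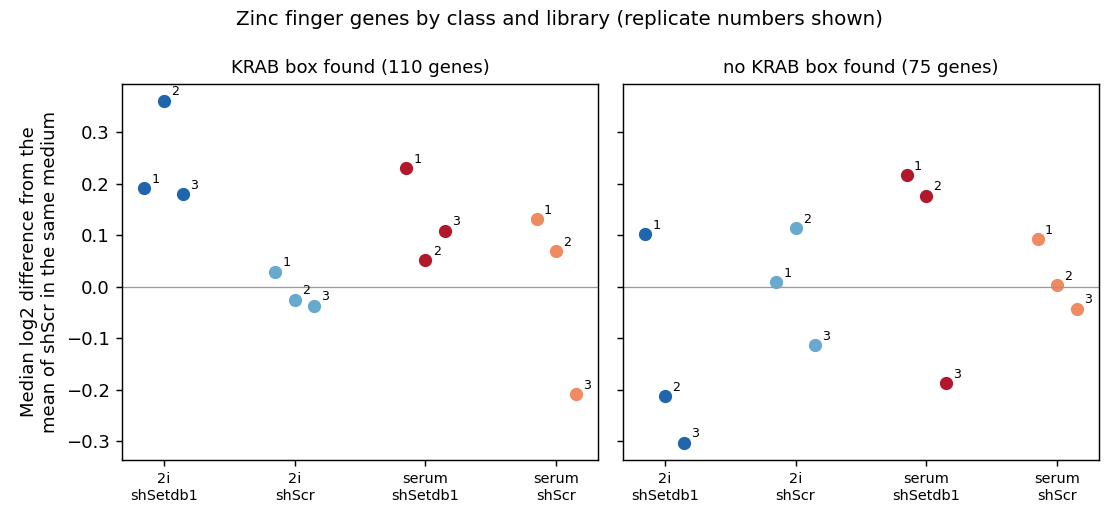
Median log2 difference of members from the mean of the shScr libraries of the same medium (vertical axis), for members with a KRAB box (left) and without (right), one point a library with its replicate number. The KRAB points of 2i shSetdb1 libraries lie at 0.18 to 0.36, above those of 2i shScr libraries at −0.04 to 0.03.

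Zfp869 lies in a run of neighbours on chromosome 8, of which 4 of 5 had positive log2 differences in both media. From Zfp868 through Zfp964, Zfp869 and Zfp963 to Zfp866, all KRAB genes, the log2 differences in 2i were 0.66, 0.38, 1.99, 0.30 and −0.48, and those in serum were 0.39, 0.33, 1.24, 0.04 and −0.18. Only Zfp869 passed among these 5, and only in 2i, and the difference between it and its neighbours was not tested. Zfp868 had 315.1, 331 and 259.9 normalised reads in 2i shSetdb1 libraries, against 208.7, 182.1 and 143.2 in 2i shScr libraries, without overlap (limma adjusted p = 0.611). Zfp964 was low, with 18.45, 37.56 and 0 normalised reads in 2i shSetdb1 libraries, against 7.944, 12.41 and 0 in 2i shScr libraries, and its log2 value understates such differences. In the longest run, Zfp455 to Zfp459 on chromosome 13, 7 of 8 members were kept, none passed in any comparison, and the differences in 2i ran from −0.09 to 0.81, the highest in Zfp456. Each of the 4 kept members of the chromosome 7 run of Zfp954, Zfp773, Zfp418 and Zfp772 had a positive log2 difference in 2i, from 0.28 to 0.77, and none passed. Of all kept KRAB members, 70.9% were above 0 in 2i and 61.8% in serum. In other runs in 2i, 4 of 4 were positive from Zfp871 to Zfp870 and from Zfp472 to Zfp563. There were 2 of 4 from Zfp709 to Zfp961, 2 of 3 kept from Zfp872 to Zfp810 and 1 of 3 kept from Zfp524 to Zfp580.

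**Figure D4:**
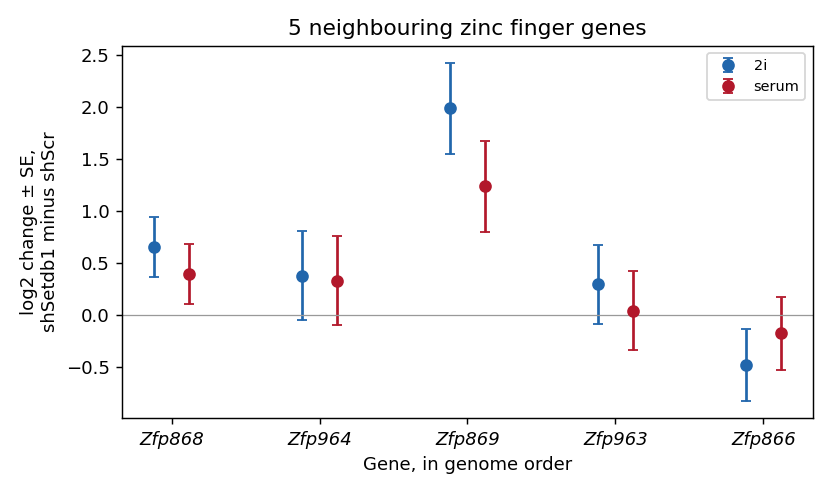
Log2 change ± SE, shSetdb1 minus shScr, of 5 adjacent KRAB zinc finger genes of chromosome 8 in genome order, in 2i and in serum. Zfp869, in the middle, stands at 1.99 in 2i and 1.24 in serum, and its neighbours lie between −0.48 and 0.66.

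Members with known retroelement or imprint targets were listed separately, and 0 of 6 passed in any comparison. Of all genes tested, 1.21% rose and 0.0552% fell in 2i, and 0.601% rose and 0.0483% fell in serum. Between the media 1.73% were higher and 1.88% lower, so 0 of 6 is near those shares. Zfp809, which recruits KAP1 to proviruses through their primer binding site, had 978.4, 470.1 and 575.2 normalised reads in 2i shSetdb1 libraries, against 458.6, 463.4 and 525.8 in 2i shScr libraries, a log2 difference of 0.39 (limma adjusted p = 0.871). Its groups overlapped, in serum too, where the log2 difference was 0.47 (limma adjusted p = 1.00). Zfp932, which binds class II endogenous retroviruses, had 486.5, 470.1 and 456.3 normalised reads in 2i shSetdb1 libraries, against 346.6, 282.8 and 346.2 in 2i shScr libraries, without overlap (log2 difference 0.49, limma adjusted p = 0.78). Zfp932 shares 37% of its 50-base words with other genes, with Gm15446 as the top partner. Zfp708, another KRAB gene with retroelement targets, shares 94.9% with other genes, an overlapping gene model being the top partner. Both Zfp932 and Zfp708 are thus uncertain. Zfp568, Zfp819 and Zfp445, the last a keeper of imprints, had log2 differences of −0.18, −0.11 and −0.01 in 2i and 0.03, 0.12 and −0.13 in serum, within the spread of their libraries.

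Of 18 other genes of the KAP1 and SETDB1 pathway, which are no members, Setdb1 fell in 2i and in serum (limma adjusted p = 0.00173 and 0.00219) and Atf7ip2 rose in 2i. Atf7ip2, a relative of the SETDB1 partner Atf7ip, had 544.9, 731 and 1150 normalised reads in 2i shSetdb1 libraries, against 210.9, 284.1 and 345.1 in 2i shScr libraries, with a log2 value of 1.36 for the change (SE 0.31, limma adjusted p = 0.0453). Atf7ip itself had log2 differences of 1.50 in 2i and 1.39 in serum and did not pass (limma adjusted p = 0.268 and 0.541). Trim28, which encodes KAP1, had log2 differences of −0.17 in 2i and −0.27 in serum (limma adjusted p = 0.96 and 1.00). The other 14 did not pass in either medium, and the list's median was −0.23 in 2i and −0.01 in serum.

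Members of other functions were listed by role. Counts of 0 among so few genes are near the shares of all genes tested, at most 1.88% in either direction of any comparison. Of 7 members of chromatin complexes and SUMO transfer, 0 passed in any comparison, with log2 differences from −0.62 to 0.24 in 2i and from −0.64 to 0.64 in serum. Zfp687, which with Zfp592 and Zfp532 forms a module around ZMYND8, had 357.5, 383.2 and 241.6 normalised reads in serum shSetdb1 libraries, against 230.1, 135.9 and 225.6 in serum shScr libraries. These groups did not overlap by a narrow margin, and the log2 difference of 0.64 did not pass (limma adjusted p = 1.00). Zfp410, an activator of Chd4, had 459.6 ± 128 normalised reads in 2i shSetdb1 libraries and 374.5 ± 41.6 in 2i shScr libraries (SD, n = 3 each). Of 6 members tied to RNA and ribosomes, 0 passed in any comparison, and differences after knockdown ran from −0.28 to 0.45 in 2i and from −0.19 to 0.32 in serum. They include Zfp598, a ubiquitin ligase of collided ribosomes, at 234.9 ± 119 in 2i shSetdb1 and 290.7 ± 115 normalised reads in 2i shScr libraries, and Zfp622, a factor of large ribosomal subunit maturation, at 1085 ± 94.3 in 2i shSetdb1 and 1295 ± 209 in 2i shScr libraries (SD, n = 3 each). A seventh listed gene, Zfp638, was not analysed here.

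Of 12 developmental and lineage members, 8 were kept, and none passed after knockdown in either medium. Of all genes tested, 1.21% rose in 2i and 0.601% in serum, so this count too is near those shares. Zfp462, which has 33 fingers and is linked to silencing through the H3K9 methyltransferases GLP and G9a, had 2243, 648.7 and 450.7 normalised reads in 2i shSetdb1 libraries, against 740.2, 1179 and 321.6 in 2i shScr libraries. These groups overlapped, and the log2 difference was 0.39 (SE 0.55, limma adjusted p = 0.928). Zfp521, Zfp536 and Zfp750, genes of progenitor, neuronal and epidermal differentiation, averaged 1.19 to 50.9 normalised reads over the 4 groups.

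The difference between the media in the response to knockdown was tested directly. No member passed for the difference of the changes, 2i minus serum, and 0 of the 14487 genes tested passed in either direction (limma), a share of 0%. At an unadjusted limma p under 0.05, 3 members had a positive difference (a higher signed change in 2i) and 0 a negative one, against 1.65% and 1.14% of all genes tested. The 3 were Zfp637, Zfp935 and Zfp759, with differences of 1.23, 1.07 and 0.96 (limma adjusted p = 1.00 each). For each of them the log2 value was positive in 2i (0.48, 0.52 and 0.72) and negative in serum (−0.74, −0.56 and −0.24). Zfp637 had 34.59, 52.79 and 141 normalised reads in 2i shSetdb1 libraries, against 32.5, 40.69 and 42.25 in 2i shScr libraries, and 22.82, 21.9 and 62.32 in serum shSetdb1 libraries, against 75.99, 47.08 and 119.8 in serum shScr libraries. Both pairs of groups overlapped. All of the sequence of Zfp935 is shared with an overlapping gene model, so its reads are uncertain.

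The last comparison set 2i shScr libraries against serum shScr libraries, to see which members differed with the medium alone. Zfp423, a transcription factor of BMP signalling, cerebellar development and fat cell commitment, was lower in 2i and was the only member to pass. No member was higher past the threshold, where 1.73% of all genes tested were higher in 2i and 1.88% lower. Zfp423 had 8.666, 22.07 and 5.868 normalised reads in 2i shScr libraries, against 442.9, 238.1 and 195.7 in serum shScr libraries. Every 2i library lay far below every serum library. The means were 12.2 ± 8.66 in 2i shScr and 292.2 ± 132 in serum shScr libraries (SD, n = 3 each), a ratio of 0.0418, or −2.85 on the log2 scale (SE 0.46, limma adjusted p = 0.0039). The ratio was 0.0249 without 2i shScr replicate 2, the highest of its group, and the call held in 20 of 20 alternatives (limma adjusted p = 0.00018 to 0.028).

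The shSetdb1 libraries entered this test only through the shared estimate of spread. They had 11.53, 0 and 0 normalised reads of Zfp423 in 2i and 328.6, 159.2 and 62.32 in serum. Their 2i values also lay below all their serum values. The log2 difference between shSetdb1 and shScr libraries was −0.67 in 2i and −0.70 in serum (SE 0.46 each, limma adjusted p = 0.846 and 1.00), and the groups overlapped in both media. Zfp423 shares 0% of its 50-base words with other genes and has no KRAB box.

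Among KRAB members, Zfp808, Zfp560 and Zfp759 had the largest negative differences between the media, and none passed. Zfp808 had 368.3, 333.8 and 130.3 normalised reads in 2i shScr libraries, against 858.6, 708 and 436.2 in serum shScr libraries, a log2 difference of −1.21 (SE 0.35, limma adjusted p = 0.0759). Zfp759 had 114.1, 103.4 and 80.98 in 2i shScr libraries, against 282.2, 271 and 188.2 in serum shScr libraries, a log2 difference of −1.04 (SE 0.31, limma adjusted p = 0.078). Zfp560 had 31.05, 52.41 and 28.17 in 2i shScr libraries, against 140, 163.5 and 57.74 in serum shScr libraries, a log2 difference of −1.06 (SE 0.35, limma adjusted p = 0.111). In these 3 genes every 2i shScr library lay below every serum shScr library. Zfp560 and Zfp759 thus had low values in 2i shScr libraries in both comparisons that use those libraries, which share them and are not independent.

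In the other direction, Zfp773, a KRAB gene, had 57.05, 48.96 and 124.4 normalised reads in 2i shScr libraries, against 5.428, 24.87 and 43.84 in serum shScr libraries (log2 difference 0.99, SE 0.38, limma adjusted p = 0.187). The ratio of its means was 3.11, and 5.07 without serum shScr replicate 3. Zfp846, also with a KRAB box, had 310.5, 270.3 and 375.6 normalised reads in 2i shScr libraries, against 158.5, 193.7 and 132.6 in serum shScr libraries (log2 difference 0.83, SE 0.28, limma adjusted p = 0.116). Neither pair of groups overlapped, and neither gene passed. Zfp706, known in mouse embryonic stem cells as a factor of exit from self-renewal, averaged 1682 ± 107 normalised reads in 2i shScr libraries and 1150 ± 109 in serum shScr libraries (SD, n = 3 each), without overlap (log2 difference 0.53, limma adjusted p = 0.397).

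Without overlap between the media, 12 members were higher in 2i shScr libraries (6.38%), against 11% of all genes tested, and 21 were lower (11.2%), against 12.8%. These shares were at or below those of all genes. At an unadjusted limma p under 0.05, 5 members were higher and 6 lower, against 8.04% and 9.28% of all genes. The median difference between the media was −0.11 over the kept members, −0.16 for those with a KRAB box and −0.03 for those without, against −0.05 over all genes tested.

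**Figure D5:**
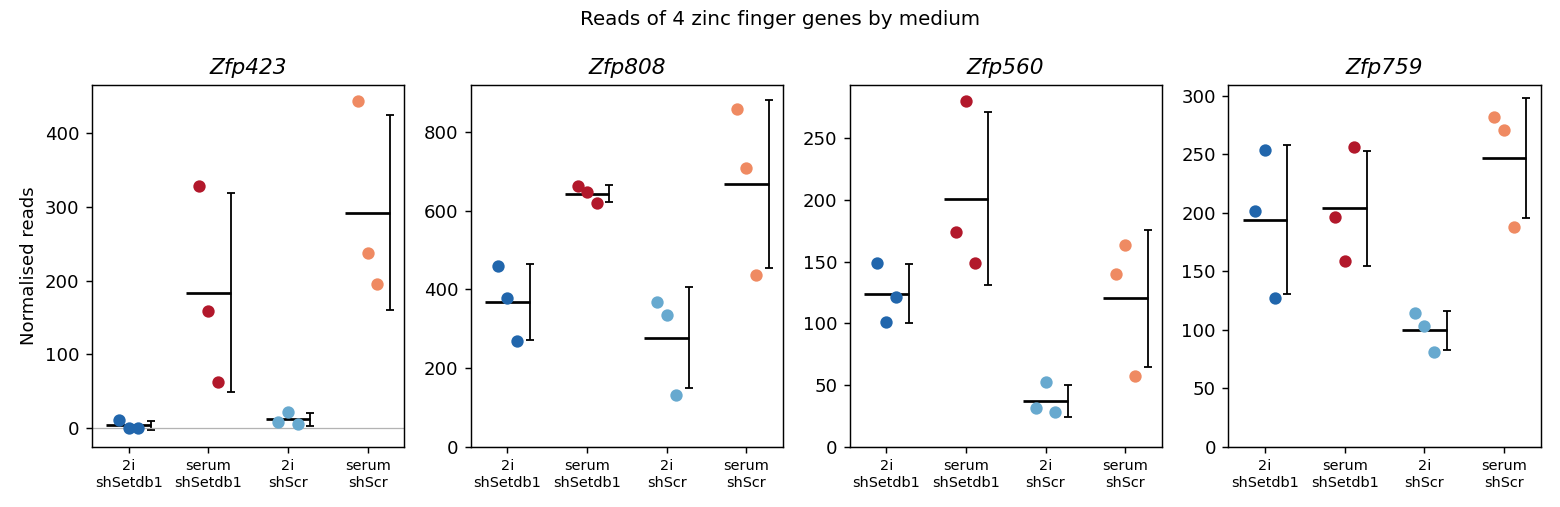
Normalised reads (vertical axes, linear) of Zfp423, Zfp808, Zfp560 and Zfp759 in each library, with 2i beside serum for shSetdb1 and for shScr. Points are single libraries, lines are means and bars are SDs over 3 libraries, and for all 4 genes the 2i shScr points lie below the serum shScr points, with Zfp423 at 5.868 to 22.07 against 195.7 to 442.9.

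The other 156 numbered Zfp genes of the table, 150 of them kept, had medians of 0.05 in 2i and 0.02 in serum. Of these genes, 2 rose in 2i and 1 in serum, where 1.21% and 0.601% of all genes tested rose. Between the media 0 of these other Zfp genes passed, where 1.73% of all genes tested were higher in 2i and 1.88% lower. Without overlap, 14 of these other Zfp genes were higher in 2i shSetdb1 libraries (9.33%), against 6.33% of all genes tested. The share was 13.3% of the kept members of Zfp400 to Zfp999, and no test was made of that gap.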

How the data were processed

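Ribosomal-RNA-depleted, directional ScriptSeq libraries were sequenced from 12 samples, per the labels' protocols. The deposited values are variance-stabilised values on a log2 scale made by the authors, in 1 table of genes and 1 of repeat families, and the tools in the submitters' processing notes are Trim Galore (0.3.3), TopHat2 (2.0.9) and, with no version, DESeq2, on build mm9. Not given in the sources used here are the counting tool, annotation and use of strand, so near-identical, overlapping and antisense genes are uncertain: 33 members share over 10% of their 50-base words with another gene, 46 are overlapped by a gene on the same strand and 70 by one on the other strand in GRCm38. Columns of samples left unused numbered 0.

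The transformation was inverted, which turned 100% of values into whole reads with a tolerance of 0.01. These give the depth and normalised reads. Depth limits low genes, and a log2 change on this scale understates theirs, so folds are ratios of mean normalised reads.

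The test was limma (3.58.1, under R 4.3.3) on the deposited values, with 1 mean per group over 12 libraries, 8 residual degrees of freedom and a mean-variance trend. The filter asked for a mean at least 0.5 over the table's lowest value (4.4522), and 14487 genes met it. Tests were two-sided, and passing meant an adjusted p under 0.05 by Benjamini-Hochberg over all of them. Whether replicates are separate cultures is not in the labels: p-values then cover the spread of these samples alone, possibly a technical one. The fit was tested on simulated data.

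In serum, same-numbered shSetdb1 and shScr libraries deviated together (correlations of 0.58, 0.23 and 0.51 over genes). Same-numbered shSetdb1 libraries of different media had correlations of 0.50, 0.005 and 0.44. The serum correlations thus do not establish a pairing, and the labels do not give one. Replicate 3 also had the highest structural RNA share of each group, and its part in these correlations was not tested. The main fit did not use a matching by number. A fit with the number as a block called 0 members in serum, as the unblocked fit did.

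Names, KRAB boxes, fingers, neighbours and shared words came from GENCODE and RefSeq annotations of GRCm38, which is not the build of the files. By symbol, 203 members matched RefSeq and 3 by a synonym. Python 3.11.15, pandas 2.3.3 and Biopython 1.88 were used. Members and lists were chosen with earlier results of these data known. Named genes were those that passed, the 8 largest rises and falls without overlap in each comparison, and the listed genes, and others named here were picked after their values were seen. Alternatives covered filters, scaling, voom on recovered reads, the groups fitted, the replicate block and leaving out each library.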

Additional observations from a re-analysis of the deposited data

How the results depend on the processing

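The counts of 0 members in serum and 0 for the difference between the media held under every alternative run. Genes named for passing or for a largest rise or fall without overlap kept their direction in the comparison that named them. For the other values of listed genes, direction was not checked. In 2i the count of 1 became 0 with no filter on low values, 0 with voom on recovered reads and 0 when only the 2i groups were fitted, and ran from 0 to 2 when single libraries were left out. Zfp869 did not pass without 2i shScr replicate 2 or 3, any one of the 2i shSetdb1 libraries, serum shScr replicate 1 or 2, or serum shSetdb1 replicate 2, the serum libraries bearing on it through the shared spread alone. Between the media the count of 1 ran from 1 to 2 when single libraries were left out, Zfp560 being added without serum shScr replicate 3. The causes were not tested beyond the smaller number of samples or larger number of genes that these alternatives bring. Median changes moved by less than the spread between libraries under every alternative run. Of 2989 values for named genes under alternatives, 2940 were labelled unchanged. That meant the same direction and side of the threshold or, for listed genes, a value within the SE of the main change. Of the named results only Zfp869 in 2i and Zfp423 between the media had passed, and many alternatives could not move a log2 change. The count labelled unchanged is thus no measure of how firm the calls are. Zfp869 did not pass in 11 of its 21 alternatives in 2i.

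The replicate number was also fitted as a block. In 2i, where same-numbered libraries had correlations of 0.46, 0.06 and 0.52, the samples share a number without a shown pairing, and the count became 3 with the block (Zfp869, Zfp958 and Zfp677) and 5 with the block within each medium (also Zfp560 and Zfp493). Between the media, with correlations of 0.23, −0.18 and 0.22, the block gave 5 (Zfp423, Zfp560, Zfp808, Zfp759 and Zfp740). The shares of all genes that passed with a block are not given here. The higher counts with a block thus cannot be read as particular to the members. A block within medium could not be fitted for that comparison, and fitting only the groups compared was not run for the difference. Depth limits low members, such as the 18 not kept.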
